A study of Rattus norvegicus with 6 samples.

Results

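Casp1, Casp8, Casp9, Casp12, Pycard, Gsdmd, Ripk1, Ripk3 and Mlkl, the caspase, pyroptosis and necroptosis genes, were taken by symbol from a table of 30452 rows, in which all 9 were found, each as 1 row. The table holds RNA-seq of rat myocardium from 3 sham samples and 3 ischemia-reperfusion (I/R) samples. All 6 came from male rats of WT genotype, and their labels carry 30 min and 6 h, the sham samples included. For I/R the left anterior descending coronary artery was tied for 30 min, and the heart was collected 6 h after release. The labels do not state which part of the heart was sampled, or whether each sample was 1 rat, so the p-values cover only the spread between these samples. Values are FPKM, fragments scaled to the length of each gene and the size of each library. In bulk tissue, fewer cells of a type and less RNA per cell cannot be told apart.

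Caspases are proteases that carry out programmed death. Casp8 starts apoptosis downstream of death receptors and also holds necroptosis in check, and Casp9 starts it on the apoptosome after mitochondrial damage. In pyroptosis the adaptor encoded by Pycard (ASC) assembles an inflammasome that activates Casp1, which cleaves Gsdmd, whose fragment opens pores in the plasma membrane. In necroptosis Ripk1 and Ripk3 pass a signal to Mlkl, the protein that breaks the membrane.

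Casp1 and Casp8 were the 2 of 9 genes that fell after I/R, and no gene rose. Casp1 was left at 38.3% of its mean sham FPKM and Casp8 at 47.4%. The other 7 genes did not pass the test, limma on log2(FPKM + 0.1) with an adjusted p under 0.05 over 10942 genes. Of all genes tested, 7.36% were called lower and 25.5% higher. At an unadjusted p under 0.05, limma gave 0 of the 9 genes higher and 2 lower. The median log2 fold change of the 9 genes was -0.47, and that of all genes tested was 0.29. Of the 9 fold changes 8 were under 0, and of all genes 34.7% were. This background varied with expression level. The 3784 genes averaging 5 FPKM or more, with none of the 9 among them, had a median of 0.66. Genes matched to the 9 by level were not compared. The groups did not overlap, with I/R lower, for 3 of the 9 genes, Casp1, Casp8 and Gsdmd, and for 13.0% of all genes. With I/R higher they did not overlap for 0 of the 9 and for 37.2% of all genes. An exact permutation test on 3 against 3 samples cannot go below 0.1, which was its value for Casp1, Casp8 and Gsdmd. The count of lower genes was 1 without sham replicate 2, sham replicate 3 or I/R replicate 3, where Casp8 lost its call.

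**Figure D1:**
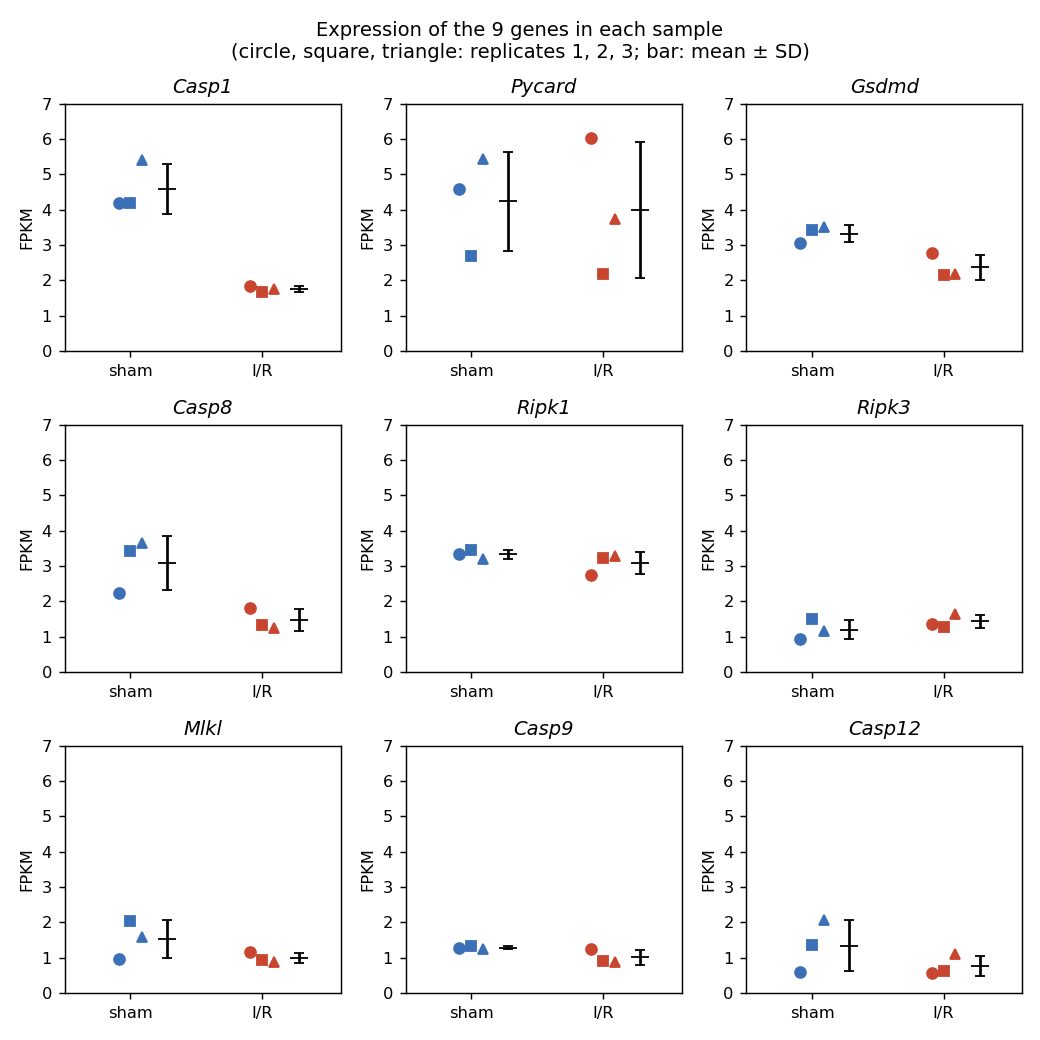
FPKM of each gene in the 3 sham and the 3 I/R samples, 1 panel a gene on the same linear axis, with the mean and SD of each group beside the points. Casp1 in I/R lies between 1.68 and 1.84, below every sham sample, while the Pycard points of both groups are spread over each other.

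The library scale bore on these counts. The 13 mitochondrially encoded mRNAs held 80.1% to 86.2% of the summed FPKM in sham and 61.8% to 71.5% in I/R. When FPKM was rescaled over the remaining genes, 7 of the 9 genes were called lower, all but Pycard and Ripk3, and 26.1% of all genes were. Centring on the median called 4 of the 9 lower, with Gsdmd and Mlkl added, and 14.2% of all genes. Rescaling to an equal sum in every sample (TPM) called 2 of the 9 lower and 4.61% of all genes. Under none of these was a gene called higher. Cardiomyocyte markers moved with the groups, with 8 of 10 higher, none at 0, and sums of 3598 to 11746 FPKM in sham and 24311 to 35294 in I/R. The highest sham sum was that of sham replicate 1, and the others were 4097 and 3598. Sham replicate 1 was also the sham sample nearest to the I/R mean for Casp8, Casp12, Mlkl, Gsdmd and Pycard. For Casp1, Casp9, Ripk1 and Ripk3 another sham sample was nearest. Without sham replicate 1 the log2 fold changes of Casp8, Casp12 and Mlkl were -1.23, -1.09 and -0.80 (limma adjusted p = 0.011, 0.055 and 0.062). Those of Gsdmd and Pycard were -0.53 and -0.06 (adjusted p = 0.126 and 0.93), and 2 of the 9 genes were called lower. The part of the cardiomyocyte markers in this was not tested. With every sample centred on the cardiomyocyte markers, all 9 genes were called lower, and so were 79.5% of all genes. Of 7 neutrophil and monocyte markers tested, 4 were higher and 1 lower, and the whole list of 9 summed to 52.3 to 68.9 FPKM in sham and 79.8 to 147 in I/R. Of 7 macrophage markers 1 was higher and 2 lower, and their sums were 46.7 to 51.3 FPKM in sham and 55.7 to 69.5 in I/R. The part of these neutrophil, monocyte and macrophage markers in the results was not tested. Of 7 pan-leukocyte markers tested 0 were called, and the whole list of 8 summed to 34.6 to 47.8 FPKM in sham and 35.4 to 40.3 in I/R. With the samples centred on the pan-leukocyte markers, Casp1 changed by -1.19 and Casp8 by -0.88 on the log2 scale. Their limma adjusted p were 0.0057 and 0.022. These markers went both ways, from -0.93 (Ptprc) to 0.59 (Itgb2), and their mean shift was -0.14. Of 3 lymphocyte markers tested 0 were called, with a median log2 fold change of -0.73. The part of the pan-leukocyte and lymphocyte markers in the results was not tested.

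**Figure D2:**
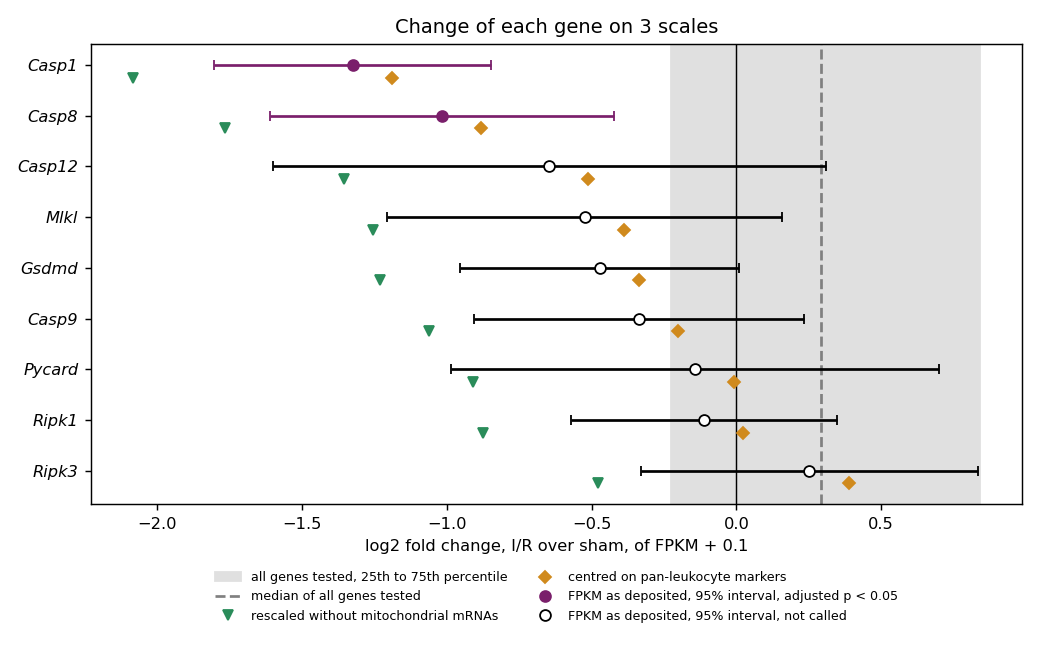
Log2 fold change of I/R over sham for each gene, with its 95% interval on the deposited scale, beside the values after rescaling without the mitochondrial mRNAs and after centring on the pan-leukocyte markers. Casp1 and Casp8 are the genes whose intervals lie farthest below 0, and rescaling without the mitochondrial mRNAs moved all 9 points to the left.

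Casp1, the inflammasome caspase that matures interleukin-1 beta, was measured at 4.19, 4.18 and 5.40 FPKM in sham replicates 1 to 3, and at 1.84, 1.68 and 1.76 in I/R. Every I/R sample was below every sham sample, and the I/R samples lay closer together than the sham samples. The mean went from 4.59 ± 0.703 to 1.76 ± 0.0807 (SD, n = 3 each). On the log2 scale Casp1 fell by 1.33 (SE 0.21, 95% interval -1.80 to -0.85), with a limma adjusted p of 0.0037. Of all genes tested, 3.26% had a lower fold change. Relative fragment numbers recovered from the FPKM, the smallest whole numbers that fit, were 348, 409 and 509 in sham and 133, 130 and 129 in I/R. If taken as an actual count, the last of these has a Poisson 95% interval of 107.7 to 153.3, which covers counting error only. The numbers are not corrected for library depth, which was lower in every I/R sample than in every sham sample.

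The promoters of Casp1 and its neighbour Casp12 are shown. Of the 7 genes with a RefSeq promoter (build GRCr8), these 2 hold a match to the interferon-stimulated response element, GAAANNGAAA or its reverse TTTCNNTTTC. The match is in capitals. Each sequence is the 250 bases before the gene start, on the plus strand, at chr8:10872580-10872829 for Casp1 and chr8:10926938-10927187 for Casp12. Casp8 and Gsdmd have no entry. Casp4, which lies between Casp1 and Casp12, was also looked up and gave no sequence.
Casp1: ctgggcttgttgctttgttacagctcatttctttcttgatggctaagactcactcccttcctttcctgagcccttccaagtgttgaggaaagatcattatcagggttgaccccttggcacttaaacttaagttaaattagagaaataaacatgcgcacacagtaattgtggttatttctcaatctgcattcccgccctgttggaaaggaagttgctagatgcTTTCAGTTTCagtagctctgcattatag
Casp12: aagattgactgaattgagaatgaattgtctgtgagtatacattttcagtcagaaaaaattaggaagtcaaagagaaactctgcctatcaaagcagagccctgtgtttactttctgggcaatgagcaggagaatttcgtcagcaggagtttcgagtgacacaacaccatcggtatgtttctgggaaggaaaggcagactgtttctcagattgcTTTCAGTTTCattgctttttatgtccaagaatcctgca
Both matches are TTTCAGTTTC on the minus strand, from -28 to -19 in Casp1 and from -38 to -29 in Casp12, counted back from the gene start. Of 33469 promoters of this length 3.41% hold one. The 2 genes are neighbours, and whether their matches are independent was not tested. Searched the same way on both strands, the NF-kB pattern GGGNNNNNCC was found in Casp1, Casp9 and Ripk3 and in 42.3% of all promoters, and the Casp1 matches overlap each other. The SP1 pattern GGGCGG was found in Casp1, Casp9, Pycard and Ripk1 and in 30.5% of all promoters. In Casp9 its match from -17 to -12 overlaps NF-kB matches from -17 to -8 and from -16 to -7, which overlap each other. The STAT pattern TTCNNNGAA was found in Casp12 (7.67% of all), the AP-1 pattern TGANTCA in Ripk3 (6.34%) and TATAAA in none of the 7 (12.9%). These are matches of letters, not sites shown to be used.

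Pycard, the ASC adaptor, was 4.59, 2.70 and 5.44 FPKM in sham and 6.02, 2.19 and 3.75 in I/R. The highest and the lowest sample were both I/R samples, and the groups overlapped. Its log2 fold change of -0.14 (SE 0.38, 95% interval -0.99 to 0.70, limma adjusted p = 0.80) turned to 0.05 in TPM.

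Gsdmd, the pore former, was 3.05, 3.41 and 3.50 FPKM in sham and 2.79, 2.16 and 2.18 in I/R. All I/R samples were below all sham samples, but the gap between the nearest samples was narrow. Its log2 fold change was -0.47 (SE 0.22, 95% interval -0.95 to 0.0082) and its limma adjusted p 0.118. The call depended on the scale, with an adjusted p of 0.0070 when rescaled without the mitochondrial mRNAs, 0.017 when centred on the median and 0.020 after quantile normalization.

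Casp12, a caspase associated with the endoplasmic reticulum, was 0.605, 1.34 and 2.07 FPKM in sham and 0.574, 0.618 and 1.09 in I/R. Sham replicate 1 was as low as the I/R samples, and the groups overlapped. Its log2 fold change was -0.65 (SE 0.43, 95% interval -1.60 to 0.31), with a limma adjusted p of 0.27. In the RefSeq annotation it lies next to Casp1 and Casp4 on chromosome 8, with no other protein-coding gene between them.

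Casp8 was 2.23, 3.41 and 3.64 FPKM in sham and 1.82, 1.33 and 1.25 in I/R. Sham replicate 1 was the sham sample nearest to the I/R samples, and the groups did not overlap. The mean went from 3.09 ± 0.760 to 1.46 ± 0.312 (SD, n = 3 each). On the log2 scale Casp8 fell by 1.02 (SE 0.27, 95% interval -1.61 to -0.42, limma adjusted p = 0.0176). The call rested on single samples, since its adjusted p was 0.062 without sham replicate 2, 0.078 without sham replicate 3 and 0.056 without I/R replicate 3. Its relative fragment numbers, also not corrected for library depth, were 217, 393 and 403 in sham and 155, 121 and 107 in I/R.

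Casp9, the apoptosome caspase, was 1.28, 1.34 and 1.23 FPKM in sham and 1.24, 0.915 and 0.863 in I/R. I/R replicate 1 fell inside the sham range and the other I/R samples below it. The log2 fold change was -0.34 (SE 0.26, 95% interval -0.91 to 0.23, limma adjusted p = 0.33).

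Ripk1, the kinase at the branch between survival and death signals, was 3.35, 3.44 and 3.19 FPKM in sham and 2.73, 3.23 and 3.28 in I/R. The groups overlapped, with I/R replicate 1 lowest. Its log2 fold change was -0.11 (SE 0.21, 95% interval -0.57 to 0.35, limma adjusted p = 0.70), and turned to 0.08 in TPM and 0.02 when centred on the pan-leukocyte markers. Ripk3, the kinase that phosphorylates Mlkl, was 0.935, 1.49 and 1.17 FPKM in sham and 1.37, 1.28 and 1.64 in I/R. It was the only gene of the 9 with a fold change above 0 on the deposited scale, 0.25 (SE 0.26, 95% interval -0.33 to 0.84, limma adjusted p = 0.48). Its groups overlapped, and the value turned to -0.48 when rescaled without the mitochondrial mRNAs and to -1.92 when centred on the cardiomyocyte markers. Mlkl was 0.961, 2.02 and 1.58 FPKM in sham and 1.15, 0.945 and 0.879 in I/R. Sham replicate 1 lay within the I/R range. Its log2 fold change was -0.52 (SE 0.30, 95% interval -1.21 to 0.16, limma adjusted p = 0.21).

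FPKM is per gene length, so levels of different genes can be set side by side. In sham the order by mean FPKM was Casp1, Pycard, Ripk1, Gsdmd, Casp8, Mlkl, Casp12, Casp9 and Ripk3. Neighbours overlapped in their ranges except at the step from Casp8 to Mlkl. In I/R Pycard, Ripk1 and Gsdmd led, followed by Casp1, Casp8 and Ripk3 and then by Casp9, Mlkl and Casp12, and ranges did not overlap between Gsdmd and Casp1 or between Ripk3 and Casp9. Casp1 had rank 1 in sham and rank 4 in I/R.

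Shares of the summed FPKM of the 9 genes do not depend on the library scale and are given as a description. The sum was 21.2, 23.3 and 27.2 FPKM in sham and 19.5, 14.4 and 16.7 in I/R. Casp1 held 19.8%, 17.9% and 19.8% of it in sham and 9.40%, 11.7% and 10.6% in I/R. Casp1 was thus lower within the set in every I/R sample. The Casp8 share was 10.5%, 14.6% and 13.4% in sham and 9.33%, 9.25% and 7.46% in I/R, again without overlap. Ripk3 held 4.41%, 6.39% and 4.30% in sham and 6.99%, 8.95% and 9.85% in I/R, all higher in I/R, though its FPKM overlapped. Shares of 1 sum are tied, so lower Casp1 and Casp8 shares raise those of other genes. Mean shares of Pycard (17.7% to 22.9%) and Ripk1 (14.1% to 18.7%) were also higher in I/R, and those of Casp12 and Mlkl lower, all with overlap. Gsdmd held 14.0% ± 0.969 in sham and 14.1% ± 1.02 in I/R (SD, n = 3 each).

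**Figure D3:**
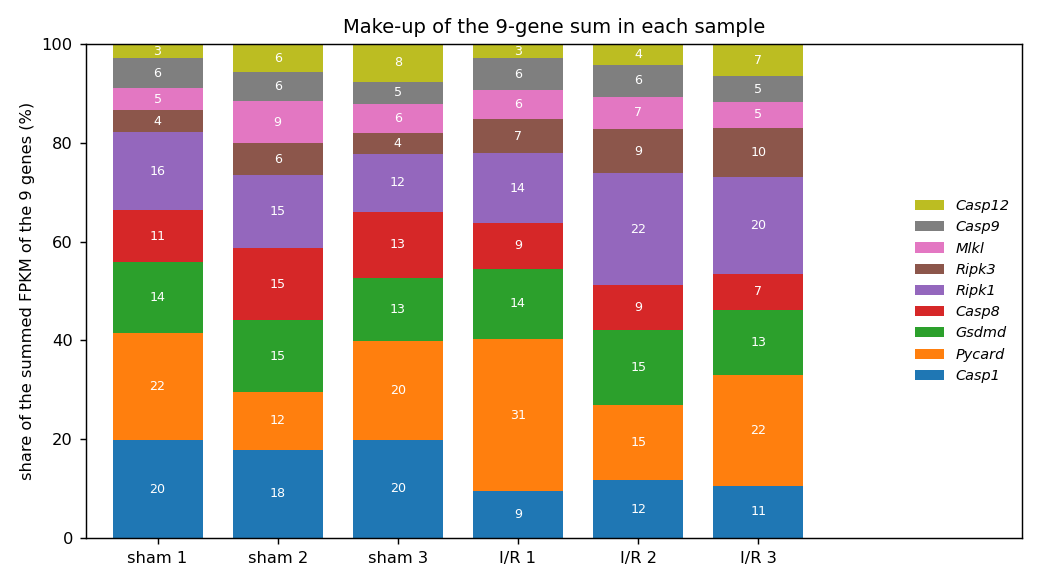
Share of each gene in the summed FPKM of the 9 genes, 1 stacked bar a sample, in percent and rounded to whole numbers. The Casp1 and Casp8 segments are thinner and the Ripk3 segment thicker in the I/R samples, while the Gsdmd segment stays near 14.0%.

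Other genes of these pathways were counted from 6 lists with 38 genes tested, of which 14 were called higher and 2 lower, with a median log2 fold change of 0.39. Of all genes tested 25.5% were called higher and 7.36% lower, with a median of 0.29. The list counts moved with the scale, to 6 higher and 11 lower when rescaled without the mitochondrial mRNAs (7.25% and 26.1% of all genes), and to 0 higher and 29 lower when centred on the cardiomyocyte markers (0.338% and 79.5%). Of 4 other caspases tested, Casp4, the sensor caspase of the noncanonical inflammasome, was the 1 called lower. It was 3.94, 8.49 and 8.68 FPKM in sham and 3.09, 3.14 and 3.62 in I/R, a log2 fold change of -1.0 (SE 0.31, limma adjusted p = 0.034). Sham replicate 1 was near the I/R samples, and the list held 0 lower calls in TPM, 0 with no expression filter and 0 when any 1 of sham replicates 2 and 3 or of the I/R replicates was left out. Casp6 had a log2 fold change of -0.62 (limma adjusted p = 0.10).

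Of 7 apoptosome and IAP genes tested, 5 rose, beside the 25.5% of all genes called higher. Birc3, an inhibitor of apoptosis that ubiquitinates Ripk1, was 1.03, 1.24 and 1.16 FPKM in sham and 5.56, 6.55 and 9.48 in I/R, a log2 fold change of 2.52 (limma adjusted p = 0.00061). The mitochondrial genes Cycs (cytochrome c), Aifm1 and Endog rose by 2.03, 1.55 and 3.20, and Birc2 by 0.97. Under the rescaling without the mitochondrial mRNAs Birc3, Cycs, Aifm1 and Endog kept a higher call and Birc2 did not, nor did Birc2 when centred on the median (adjusted p = 0.057) or after quantile normalization (0.12). When centred on the cardiomyocyte markers, Cycs, Aifm1 and Birc2 turned to -0.14, -0.62 and -1.20, and no gene of the list was called higher. Birc2 was called lower there (limma adjusted p = 0.041).

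Of 7 death receptor and adaptor genes tested, 3 rose, again beside 25.5% of all genes. Tnfrsf1a, the main TNF receptor, rose by 1.52, Tnfrsf10b by 1.40 and Cflar, the Casp8-like inhibitor c-FLIP, by 1.58. The list held 2 higher calls with no expression filter, and 2 without sham replicate 1, sham replicate 3, I/R replicate 1 or I/R replicate 2. Cflar was 1.81, 2.13 and 1.62 FPKM in sham and 4.84, 7.66 and 5.03 in I/R, while Casp8 went the other way. The 3 calls were lost when rescaled without the mitochondrial mRNAs, and their values turned under 0 when centred on the cardiomyocyte markers. Fadd, the adaptor that recruits Casp8, had a log2 fold change of 0.34 (limma adjusted p = 0.39).

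Of 5 inflammasome genes tested, Il1b, a Casp1 substrate, was the 1 that rose. It was 0.634, 0.773 and 0.715 FPKM in sham and 3.63, 7.70 and 7.41 in I/R, a log2 fold change of 2.90 (SE 0.30, limma adjusted p = 0.00084), and it was also called higher in TPM, without the mitochondrial mRNAs, after quantile normalization and with the sample medians centred, but not when centred on the cardiomyocyte markers (0.73, adjusted p = 0.27). Il18, the other main Casp1 substrate, had -0.42 (adjusted p = 0.38). Ninj1, the protein that ruptures the membrane late in lytic death, was the 1 gene tested of its list and rose by 1.19, from 12.7 ± 1.57 to 28.9 ± 0.770 FPKM (SD, n = 3 each), with no call when rescaled without the mitochondrial mRNAs or after quantile normalization, and a lower call, at -0.99, when centred on the cardiomyocyte markers (adjusted p = 0.048).

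Of 14 necroptosis regulators tested, 4 rose and 1 fell, counts near the 25.5% and 7.36% of all genes. Tnfaip3 (A20), a ubiquitin-editing brake on Ripk1 and Ripk3 signalling, was 0.410, 0.257 and 0.466 FPKM in sham and 2.29, 2.50 and 1.87 in I/R, a log2 fold change of 2.30 (limma adjusted p = 0.0021), which was 0.12 with no call when centred on the cardiomyocyte markers. Ppm1b, Pgam5 and Tab2 rose by 0.78, 0.76 and 0.81. The higher calls of the list numbered 1 when rescaled without the mitochondrial mRNAs, where the Pgam5 value was -8.7e-05. They also numbered 1 when centred on the median, after quantile normalization and with no expression filter. They numbered 1 without sham replicate 1, sham replicate 3, I/R replicate 1 or I/R replicate 2, and 2 without sham replicate 2. Centred on the cardiomyocyte markers, Ppm1b, Pgam5 and Tab2 were called lower, at -1.39, -1.41 and -1.36 (limma adjusted p = 0.024, 0.024 and 0.027). Tlr3, a double-stranded RNA receptor that can lead to Ripk3 activation, fell by 1.11 on the log2 scale, from 1.53, 1.52 and 1.33 to 0.705, 0.582 and 0.588 FPKM (limma adjusted p = 0.011).

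**Figure D4:**
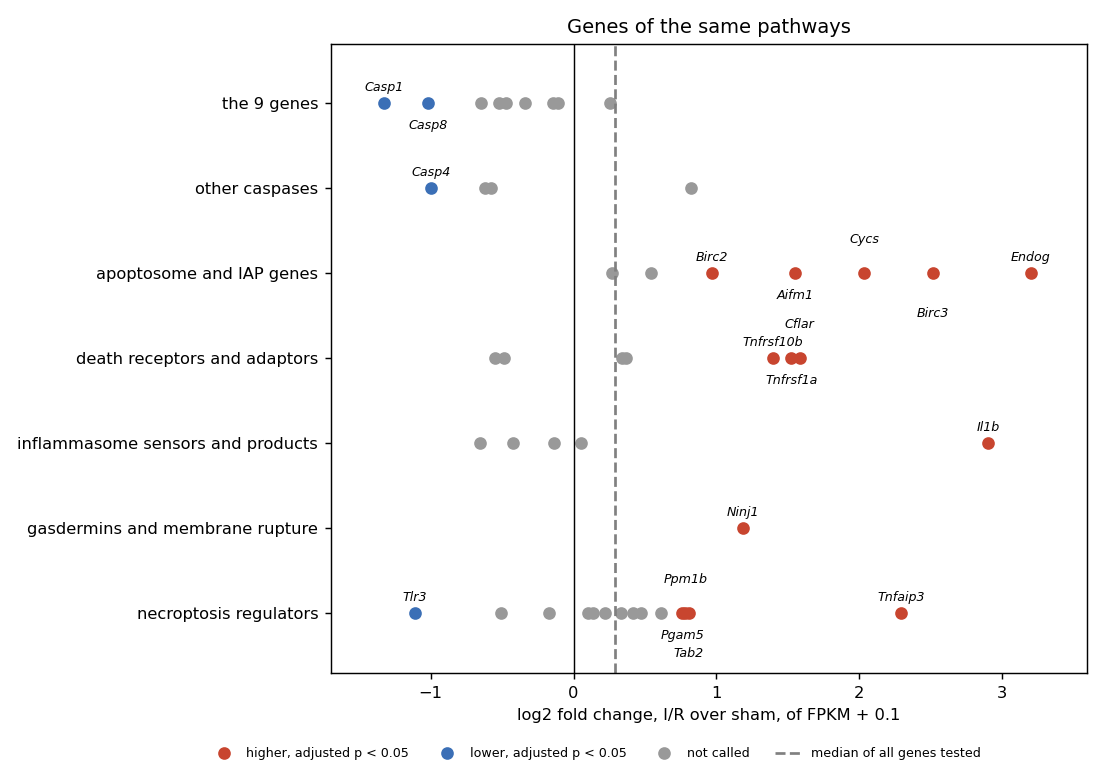
Log2 fold change of I/R over sham for the 9 genes and for the tested genes of the 6 lists, 1 point a gene, with the called genes named. The 9 genes lie between -1.33 and 0.25, left of the median of all genes tested at 0.29, while called genes of the apoptosome list reach 3.20.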

How the data were processed

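The authors deposited 1 table of FPKM for 3 sham and 3 I/R samples, made with a stranded total RNA kit. The submitters' processing notes name STAR and HTSeq without a version, and the build, the annotation and the FPKM divisor are not given in the sources used here. Rows of 1 symbol were summed (28293 genes), and log2(FPKM + 0.1) was compared, for the 10942 genes averaging 0.5 FPKM or more, with limma 3.58.1 (R 4.3.3, intensity trend, two-sided, Benjamini-Hochberg over all genes tested, threshold 0.05); standard errors are moderated. Fragment numbers were recovered from ratios between samples (tolerance 0.01 of a fragment). They fitted 96.9% of rows with a mean of at least 0.5 and give each gene's numbers only up to a common multiple. Relative depth, with sham replicate 1 at 1, was 1.18 and 1.14 in sham replicates 2 and 3. In I/R replicates 1 to 3 it was 0.873, 0.935 and 0.881. No count test was run. All 9 genes, and of each pathway list the genes called and some others, are named; some genes of the lists are not reported here singly. Members and lists were chosen with earlier results of these data known. Deviations from the group means of same-numbered samples correlated at 0.203, 0.117 and 0.118. Sham replicate 3 with I/R replicate 2, of unlike number, had 0.120, so these values do not show pairing. The paper states no pairing of rats, and the block on the numbers in the labels was run only as an alternative.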

Additional observations from a re-analysis of the deposited data

How the results depend on the processing

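No gene of the 9 was called higher under any alternative run. The count called lower, 2 as reported, was 7 when rescaled without the mitochondrial mRNAs and 4 when centred on the median. It was 3 after quantile normalization, 1 at an adjusted p under 0.01, and 1 to 2 when single samples were left out. Centred on the cardiomyocyte markers, the count was 9. That centring, and the one on pan-leukocyte markers, were chosen after seeing the data; the first takes 2.17 from every log2 fold change. Casp1 was called lower under all 18 alternatives, with adjusted p of 3.6e-07 to 0.0191. Values that changed sign were Pycard (0.050) and Ripk1 (0.079) in TPM, Ripk1 when centred on the pan-leukocyte markers (0.023), Pycard when single samples were left out (-0.49 to 0.22), and Ripk3 when rescaled (-0.48) or centred on the cardiomyocyte markers (-1.92), and the cause was not tested. No member reached a mean FPKM of 5, so that filter gave no value. A fit with a block on the replicate number, which is not a known pairing, called 0 of the 9 genes higher and 2 lower. It changed no call of the 9 genes. Of calls over all genes 77.6% were higher, against 87.3% in TPM, 56.5% centred on the median, 48.0% after quantile normalization, 21.7% when rescaled and 0.424% when centred on the cardiomyocyte markers. Fragment numbers of 91 to 776, if taken as actual counts, give counting errors of 3.59% to 10.5%. If the actual counts are multiples of them, the errors are smaller.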

Other observations

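Several sensors lay under the expression filter and were tested only in the fit without it, over all genes with any signal. Aim2, the sensor of cytosolic DNA, was 0.841, 0.572 and 1.07 FPKM in sham and 0.0584, 0.0818 and 0.246 in I/R. Zbp1, the nucleic acid sensor that binds Ripk3, was 0.715, 0.723 and 0.553 FPKM in sham and 0.360, 0.215 and 0.171 in I/R. Both were lower in every I/R sample than in any sham sample, as were 13.0% of the genes that passed the filter. Without the filter Aim2 was called lower (log2 fold change -2.07, SE 0.41, limma adjusted p = 0.024), as were 639 of 19226 genes. Its I/R values lie around the 0.1 added before the log, so the size of the fold depends on that number. Zbp1 was not called (-1.16, SE 0.32, adjusted p = 0.055), nor were Nlrc4 (0.19, adjusted p = 0.73) and Mefv (0.54, adjusted p = 0.27). Nlrp3 was 0.0798, 0.125 and 0.260 FPKM in sham and 0.169, 0.296 and 0.293 in I/R, with overlap (0.51, adjusted p = 0.38).

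Over the 6 samples the genes most like Casp1 by Pearson r of log2(FPKM + 0.1) were Mocos (0.997) and Nr2f2 (0.993), those most like Casp8 were Vps50 (0.998) and Asb14 (0.993), and the gene most like Gsdmd was Rem1 (0.999). For Pycard the highest were Cldn12 (0.932) and Nfam1 (0.929), and for Ripk3 SNORD24 (0.998) and Fam177a1 (0.991). Among the 9 genes themselves Casp8 and Gsdmd had an r of 0.975 and Casp1 and Casp8 of 0.920. These correlations share the same 6 libraries and are a description.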
